A study of Mus musculus with 4 samples.

Results

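The lower glycolysis enzymes described here are 10 genes of the mouse count tables, chosen by name from the 31017 gene names of the tables: Gpi1, Aldoa, Aldoc, Tpi1, Gapdh, Pgk1, Pgam1, Eno1, Eno2 and Pkm. All 10 were present and all 10 passed the filter on low counts, with no zero count in any library. Their transcripts were counted in 4 bulk RNA-seq libraries from sorted pancreatic beta cells, the insulin-producing cells of the islets of Langerhans. The cells came from wild-type male C57BL/6J mice of 10 weeks, and no group carried an engineered allele or received a treatment. Islets were cultured overnight, dissociated and sorted by flow cytometry on CD63, a tetraspanin of late endosomes, lysosomes and secretory vesicles, into cells with high and with low CD63, each sequenced as 2 libraries. The labels do not say how many animals were pooled or whether replicates came from separate sorts, and p-values therefore reflect only how much these libraries vary, which may be technical.

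Glycolysis splits glucose into pyruvate in the cytosol. The 10 genes encode the steps from glucose 6-phosphate isomerisation to pyruvate, apart from the phosphofructokinase step: an isomerase (Gpi1), the aldolases that split the hexose (Aldoa, Aldoc), triose phosphate isomerase (Tpi1), the NADH-producing glyceraldehyde 3-phosphate dehydrogenase (Gapdh), the ATP-producing phosphoglycerate kinase (Pgk1), a mutase (Pgam1), the enolases (Eno1, Eno2) and the ATP-producing pyruvate kinase (Pkm). In beta cells the rate of glucose breakdown sets the ATP signal for insulin secretion. Pyruvate in these cells is known to go mainly into mitochondria, with little lactate dehydrogenase.

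Total counts were 29249270 to 35003307 per library, so 1 CPM (counts scaled to the library total) stood for 29.2 to 35.0 counts. Ins1 and Ins2 took 48.7% to 56.4% of all counts. The 10 beta cell markers, mostly these and Iapp, summed to 483200 to 675700 CPM after edgeR's trimmed-mean (TMM) scaling. All further CPM levels are on that TMM scale. Of these 10 markers 3 fell in CD63 high (Slc2a2, Mafa and Slc30a8) and 6, with Ucn3, Pdx1 and Nkx6-1, were lower in both CD63 high libraries, with a list median log2 fold change of -0.57. Cd63 transcript, the check of the sort, was 1974 and 2077 CPM in CD63 high and 1186 and 1120 CPM in CD63 low replicates 1 and 2 (edgeR adjusted p 0.0484). Markers of other cells differed between the groups too. The 15 macrophage markers summed to 235 and 994 CPM in CD63 high replicates 1 and 2 where the CD63 low pair had 43.6 and 66.35 CPM, and 12 of them rose. The 8 alpha cell markers summed to 5403 to 6096 CPM against 460 to 508 CPM, and the 11 acinar markers to 996 to 1507 CPM against 25.8 to 334 CPM, and of those tested 2 of 7 and 4 of 11 rose. All 3 tested delta cell markers and all 4 gamma cell markers rose, among them Sst by 12.5-fold and Ppy by 8.04-fold. Of 6 tested duct markers 1 rose, Spp1 by 11.8-fold (edgeR adjusted p 0.000911). Among all tested genes 2.50% rose and 0.287% fell, and 22.2% were lower in both CD63 high libraries than in either CD63 low library.

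None of the 10 enzymes passed the test between CD63 high and CD63 low cells, where 2.79% of all tested genes did. However, 7 of them were higher in both CD63 high libraries than in either CD63 low library, as were 23.8% of all tested genes. These 7 were Gpi1, Aldoa, Tpi1, Gapdh, Pgk1, Pgam1 and Eno1, with differences of 1.27-fold to 1.57-fold. Aldoc, Eno2 and Pkm had overlapping groups, with log2 fold changes of -0.26 to -0.03. Tpi1 and Gapdh had the largest differences, at 1.57-fold and 1.54-fold.

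Levels below are TMM-scaled CPM, that is CPM after edgeR's trimmed-mean scaling. Calls come from edgeR's quasi-likelihood test over all 13241 tested genes, at a threshold of 0.05 on the p adjusted by Benjamini-Hochberg. In that test 2.79% of tested genes were called, 2.50% higher and 0.287% lower in CD63 high cells, against 0 of the 10 enzymes. At an unadjusted p under 0.05 the same test gave 5 of the 10 enzymes (Gapdh, Tpi1, Eno1, Gpi1 and Pgk1, all higher in CD63 high), where 8.95% of all tested genes were higher at that level. DESeq2 called 2 enzymes and limma-voom 0. CPM values above and not overlapping between the groups were found in 23.8% of all tested genes, below in 22.2% and either way in 46.0%, against 7, 0 and 7 of the 10 enzymes. The median log2 fold change of the 10 was 0.41, and that of all tested genes -0.01.

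**Figure D1:**
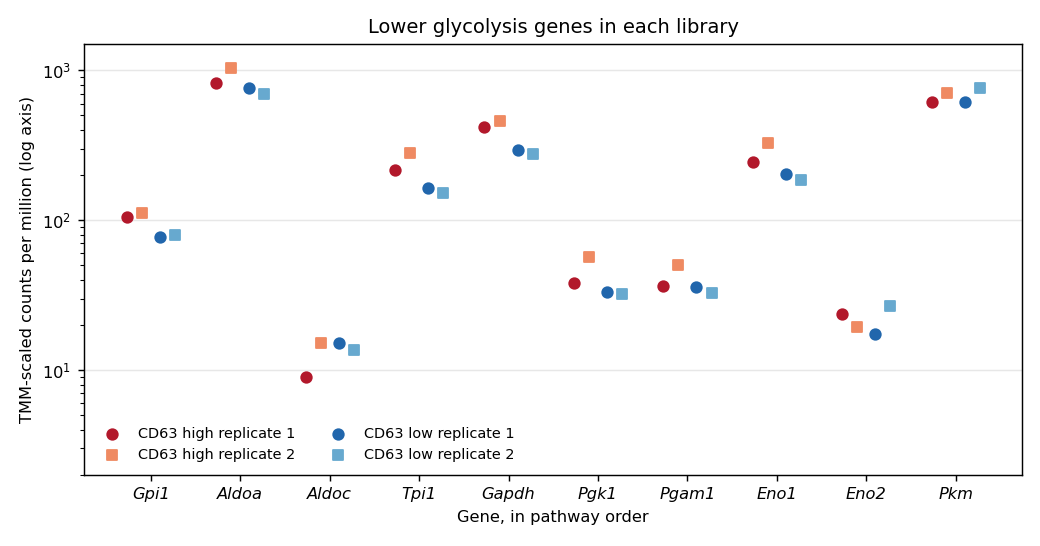
TMM-scaled CPM (log axis) of the 10 enzymes in pathway order, 1 point per library. For 7 genes both CD63 high points lie above both CD63 low points, narrowly for Pgam1 (36.4 against 35.7), and for Aldoc, Eno2 and Pkm the groups overlap.

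Per length, the enzymes differed widely in level. As mean length-scaled TPM, in which the values of a library sum to the same total, over the 4 libraries, with the exon length of the tables, Aldoa stood at 353, Pkm at 217, Gapdh at 138, Tpi1 at 116 and Eno1 at 70.0. Pgam1, Pgk1 and Gpi1 followed at 33.3, 28.0 and 23.0 TPM, and Eno2 and Aldoc came last at 7.515 and 6.395 TPM. On this scale the ranges over libraries of Aldoa, Pkm and Gapdh did not overlap. Those of Gapdh and Tpi1, of Tpi1 and Eno1, of Pgam1 and Pgk1, of Pgk1 and Gpi1, and of Eno2 and Aldoc did overlap. With the length of the principal GENCODE M21 transcript in place of all exons, Aldoa stood at 660, Pkm at 339, Gapdh at 305.5, Tpi1 at 151 and Eno1 at 141 TPM. The ranges of Pkm (273.9 to 443 TPM) and Gapdh (222 to 368 TPM) then overlapped, and Gpi1, at 39.1 TPM, stood above Pgk1 and Pgam1 at 26.2 and 26.1 TPM. By TPM with exon length, Aldoa ranked between 64 and 78 among the 31017 names in the 4 libraries, and Pkm between 100 and 200.

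The starts of the genes with the largest and the smallest log2 fold changes are shown to let them be compared, since 7 of the genes were higher in the same libraries. Each line gives the 250 bases before a RefSeq transcript start (GRCm38.p6), 5′ to 3′ on the gene's strand. Each start is that of a single transcript, and the windows lie partly or, for Gapdh, wholly inside the gene span given below. Capitals mark ACGTG or GCGTG, or their reverse complements CACGT and CACGC, the core letters known to be bound by hypoxia-inducible factor, a regulator of glycolysis genes. The windows lie at chr6:124814159-124814408 on the minus strand (Tpi1), chr6:125165774-125166023 on the minus strand (Gapdh), chr9:59656326-59656575 on the plus strand (Pkm) and chr11:78322823-78323072 on the plus strand (Aldoc).
Tpi1: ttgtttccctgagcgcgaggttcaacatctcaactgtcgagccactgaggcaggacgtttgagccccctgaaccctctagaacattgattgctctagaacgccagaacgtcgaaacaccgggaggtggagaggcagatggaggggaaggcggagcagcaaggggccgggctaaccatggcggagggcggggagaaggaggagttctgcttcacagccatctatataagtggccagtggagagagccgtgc
Gapdh: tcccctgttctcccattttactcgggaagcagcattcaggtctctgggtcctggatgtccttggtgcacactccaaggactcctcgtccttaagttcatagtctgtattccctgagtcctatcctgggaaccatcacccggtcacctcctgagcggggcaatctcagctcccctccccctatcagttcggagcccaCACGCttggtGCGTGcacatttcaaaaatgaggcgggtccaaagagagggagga
Pkm: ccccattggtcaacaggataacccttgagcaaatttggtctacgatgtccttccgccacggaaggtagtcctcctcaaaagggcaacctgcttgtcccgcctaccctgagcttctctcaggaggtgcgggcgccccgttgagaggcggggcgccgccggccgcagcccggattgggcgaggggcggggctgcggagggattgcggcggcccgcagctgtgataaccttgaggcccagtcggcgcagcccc
Aldoc: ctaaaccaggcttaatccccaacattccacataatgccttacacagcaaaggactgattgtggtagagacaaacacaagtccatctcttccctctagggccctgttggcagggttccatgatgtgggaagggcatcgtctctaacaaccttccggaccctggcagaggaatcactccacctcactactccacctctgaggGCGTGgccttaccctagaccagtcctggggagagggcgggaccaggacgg

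Gapdh had 2 such matches in this window and Aldoc 1, while these letters were not found in the windows of Tpi1 and Pkm. All 10 genes had a RefSeq entry (16 entries, of which the start nearest the principal transcript was used), and 6 of the 10 windows held at least 1 match (Aldoa, Aldoc, Gapdh, Pgk1, Pgam1 and Eno1), as did 38.6% of all 32851 RefSeq windows. Matches were counted on both strands, each start separately. The 32851 windows hold every RefSeq entry, so a gene with several entries is in them more than once. Of the 7 genes with higher CPM in both CD63 high libraries, 5 windows held a match, and of the other 3, 1 did. The GC box letters GGGCGG, searched in the same way, were in 6 of the 10 windows and in 32.7% of all windows.

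Gpi1, on chromosome 7 (34201330 to 34230336, mm10, minus strand), encodes glucose 6-phosphate isomerase, which turns glucose 6-phosphate into fructose 6-phosphate. It stood at 105 and 112 CPM in CD63 high replicates 1 and 2 and at 77.65 and 79.1 CPM in CD63 low replicates 1 and 2. The groups did not overlap and the replicates lay close together (109 ± 4.80 against 78.4 ± 1.03 CPM, mean ± SD, n = 2). The log2 fold change was 0.47 (SE 0.19, 95% interval 0.06 to 0.89) with an edgeR adjusted p of 0.266. It was among the steadiest of the 10, between 0.43 and 0.52 with any single library left out.

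Aldolase splits fructose 1,6-bisphosphate into triose phosphates, and Aldoa and Aldoc encode the muscle-type and brain-type forms. Aldoa (chromosome 7, 126795234 to 126809108, mm10, minus strand) stood at 827 and 1042 CPM in CD63 high and 766 and 694 CPM in CD63 low replicates 1 and 2. All CD63 high values were above the CD63 low ones, but the 2 CD63 high libraries lay further apart than the 2 groups at their nearest. Its fitted log2 fold change was 0.36 (SE 0.20, 95% interval -0.09 to 0.80, edgeR adjusted p 0.461) and was 0.18 without CD63 high replicate 2. Aldoc (chromosome 11, 78322968 to 78327781, mm10, plus strand) stood at 9.001 and 15.1 CPM against 15.2 and 13.6 CPM, so CD63 high replicate 1 alone was low. Its log2 fold change was -0.26 (SE 0.30, 95% interval -0.91 to 0.39, edgeR adjusted p 0.763), and 0.07 without that library.

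The balance of the aldolase genes does not depend on scaling between libraries. Aldoc made up 1.08% and 1.425% of the Aldoa and Aldoc counts in replicates 1 and 2 of CD63 high (95% Wilson intervals 0.958 to 1.21% and 1.30 to 1.57%). In CD63 low replicates 1 and 2 it made up 1.95% and 1.92% (1.78 to 2.13% and 1.765 to 2.09%). The share was thus lower in both CD63 high libraries, and the intervals, which cover counting error only, did not overlap between the groups. The intervals of the 2 CD63 high libraries did not overlap each other either, so they do not measure the variation between libraries. For comparison, the CPM values of 46.0% of all tested genes did not overlap between the groups, in either direction. Per exon length the mean share was 1.42% in CD63 high and 2.19% in CD63 low. With 2 libraries against 2 an exact two-sided permutation test cannot go below p = 0.333, which is the value here.

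Tpi1 (chromosome 6, 124810586 to 124814296, mm10, minus strand) encodes triose phosphate isomerase, which interconverts the triose phosphates so that both can enter the next step. It stood at 217 and 279 CPM in CD63 high replicates 1 and 2 and at 164 and 152 CPM in CD63 low replicates 1 and 2. Both CD63 high libraries were above both CD63 low libraries, and CD63 high replicate 2 was the highest. The log2 fold change of 0.65 (SE 0.20, 95% interval 0.20 to 1.10) was the largest of the 10, with an edgeR adjusted p of 0.136. DESeq2 gave an adjusted p of 0.0323, within a range of 0.0166 to 0.691 over 15 alternatives. Without CD63 high replicate 2 the log2 fold change was 0.46.

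Gapdh (chromosome 6, 125161715 to 125166467, mm10, minus strand) encodes the dehydrogenase that makes NADH, and it is often used as a reference gene. It stood at 419 and 457 CPM in CD63 high and at 292 and 278 CPM in CD63 low replicates 1 and 2. The groups were well apart relative to their replicates (438 ± 27.3 against 285 ± 9.81 CPM, mean ± SD, n = 2). The log2 fold change was 0.62 (SE 0.19, 95% interval 0.20 to 1.03) with an edgeR adjusted p of 0.127, the smallest of the 10, and it ranked 789 by p among all tested genes. DESeq2 gave an adjusted p of 0.0200, within a range of 0.0140 to 0.531 over 15 alternatives. Left-out libraries moved the log2 fold change only between 0.55 and 0.68. GENCODE M21 lists 169 pseudogenes that match the Gapdh transcript at 90% identity or more over at least 300 bases, against 0 to 8 for each of the other 9 genes. Reads that match several places are not counted under the deposited settings, so the level of Gapdh in particular may be too low in every library.

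Pgk1 and Pgam1 encode the kinase that makes ATP from 1,3-bisphosphoglycerate and the mutase that moves the phosphate. Pgk1 (chromosome X, 106187100 to 106203699, mm10, plus strand) stood at 38.3 and 56.7 CPM in CD63 high and 33.0 and 32.25 CPM in CD63 low replicates 1 and 2. The CD63 low replicates were nearly equal and CD63 high replicate 2 stood apart. Its fitted log2 fold change was 0.54 (SE 0.23, 95% interval 0.02 to 1.06, edgeR adjusted p 0.312), and 0.23 without CD63 high replicate 2. Pgam1 (chromosome 19, 41911871 to 41918664, mm10, plus strand) stood at 36.4 and 50.2 CPM in the CD63 high pair against 35.7 and 32.7 CPM in CD63 low libraries. Its groups were separated by less than 1 CPM, and they overlapped as TPM and when the 10 most abundant genes were left out of the library size. Its fitted log2 fold change was 0.34 (SE 0.23, 95% interval -0.16 to 0.84, edgeR adjusted p 0.547) and 0.09 without CD63 high replicate 2.

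Enolase makes phosphoenolpyruvate, and Eno1 and Eno2 encode its widely expressed and its neuronal form, the latter also known from endocrine cells. Eno1 (chromosome 4, 150236721 to 150248879, mm10, plus strand) stood at 243.5 and 327 CPM in CD63 high and 203 and 185 CPM in CD63 low replicates 1 and 2. The groups did not overlap, and CD63 high replicate 2 was the highest library. Its fitted log2 fold change was 0.55 (SE 0.21, 95% interval 0.09 to 1.02, edgeR adjusted p 0.232) and 0.33 without that library. Eno2 (chromosome 6, 124760053 to 124769673, mm10, minus strand) stood at 23.8 and 19.4 CPM in CD63 high and 17.3 and 26.7 CPM in CD63 low libraries. Both CD63 high values lay between the CD63 low ones, with a log2 fold change of -0.03 (SE 0.27, 95% interval -0.62 to 0.56, edgeR adjusted p 0.980).

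Eno2 made up 8.90% and 5.61% of the Eno1 and Eno2 counts in replicates 1 and 2 of CD63 high (95% Wilson intervals 8.305 to 9.52% and 5.16 to 6.085%). In CD63 low replicates 1 and 2 the share was 7.845% and 12.6% (7.225 to 8.51% and 11.9 to 13.3%). Unlike the aldolase share, it overlapped between the groups, since CD63 high replicate 1 lay between the CD63 low libraries. Per exon length the means were 8.20% and 11.5%.

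Pkm (chromosome 9, 59656368 to 59679375, mm10, plus strand) encodes pyruvate kinase M, whose M1 and M2 splice forms cannot be separated in counts per gene. It stood at 617 and 706 CPM in CD63 high and at 619 and 764 CPM in CD63 low replicates 1 and 2. The groups overlapped, with 662 ± 63.1 against 691 ± 103 CPM (mean ± SD, n = 2). The log2 fold change was -0.06 (SE 0.20, 95% interval -0.51 to 0.38) with an edgeR adjusted p of 0.931. That interval still allows a change of the size seen in Aldoa or Pgam1. Pklr, the liver and red cell form, had 80 and 115 counts in CD63 high and 59 and 158 counts in the CD63 low pair (a log2 difference of 0.15, SE 0.49).

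**Figure D2:**
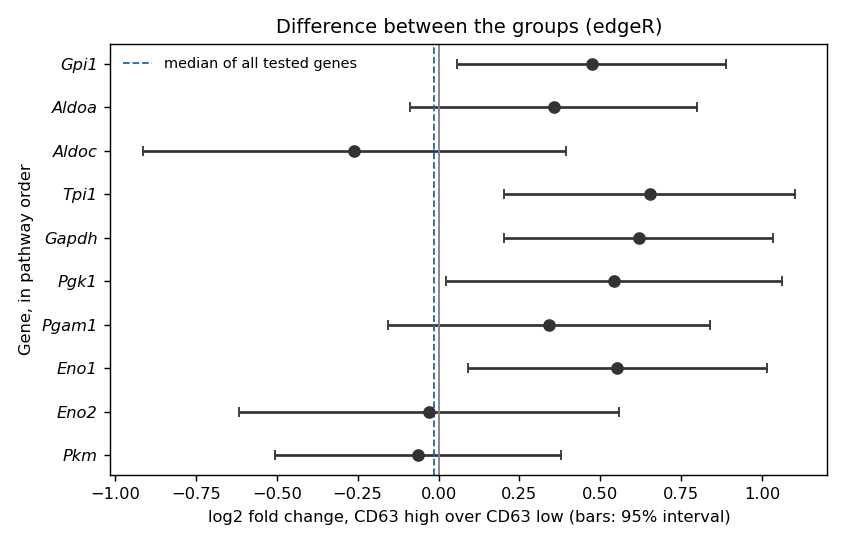
Log2 fold change of each enzyme, CD63 high over CD63 low, by edgeR (point) with its 95% interval (bar), in pathway order. The dashed line is the median of all tested genes. The intervals of Gpi1, Tpi1, Gapdh, Pgk1 and Eno1 lie above 0 before adjustment for the 13241 tests, and those of the other 5 genes include 0.

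Ratios within a library, which no scaling between libraries can move, separated 7 enzymes from Pkm. Gapdh counts were 0.678 and 0.647 of Pkm counts in the CD63 high pair and 0.472 and 0.364 in the CD63 low pair. Tpi1 counts were 0.352 and 0.395 of Pkm counts against 0.265 and 0.199. The count relative to Pkm was higher in both CD63 high libraries for these and for Gpi1, Aldoa, Pgk1, Pgam1 and Eno1, and it overlapped for Aldoc and Eno2. Among all tested genes 21.9% had a ratio to Pkm that was higher in both CD63 high libraries. Pkm was taken as the reference after its values were seen, and a ratio shows unequal change without saying which gene changed.

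The sum over the 10 enzymes, a description dominated by Aldoa and Pkm, was 1037 and 1120 TPM in CD63 high and 782 and 1029 TPM in CD63 low replicates 1 and 2. CD63 low replicate 2 thus lay just below CD63 high replicate 1 on that scale. As TMM-scaled CPM the sum was 2536 and 3064 against 2223 and 2257. The mean log2 difference between the groups was 0.26 in TPM and 0.07 without CD63 low replicate 1.

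CD63 high replicate 2 held the highest TMM-scaled CPM of Gpi1, Aldoa, Tpi1, Gapdh, Pgk1, Pgam1 and Eno1. For Gpi1 and Gapdh this order depended on the scaling. As TPM, they stood at 26.8 and 166 in CD63 high replicate 1 and at 25.2 and 160 in replicate 2. The scaled alpha, delta, gamma, acinar and macrophage marker sums were also highest in CD63 high replicate 2. Without it the median log2 fold change of the 10 enzymes was 0.22 above that of all tested genes, and with all 4 libraries 0.43. Without CD63 high replicate 1 it was 0.56 above. All 7 log2 fold changes stayed above 0 in each of the 15 alternative analyses. In CD63 high replicates 1 and 2 the differences of these 7 enzymes ranged from Gpi1, at 105 and 112 CPM, to Pgk1, at 38.3 and 56.7 CPM. In the same order the macrophage marker sum was 235 and 994 CPM and the delta sum 452 and 889 CPM. The gamma sum was 2349 and 4126 CPM, the acinar sum 996 and 1507 CPM and the alpha sum 5403 and 6096 CPM. The beta sum was 535600 and 620300 CPM. The duct and endothelial sums went the other way, at 2752 and 1588 CPM and at 4.09 and 1.23 CPM. The duct sum was mostly Spp1, at 2007 and 913.5 CPM, while the duct marker Krt19 was higher in replicate 2, at 1.98 and 3.97 CPM. Endothelial markers (7) summed to 1.23 to 4.09 CPM in CD63 high and 0.264 to 0.539 CPM in CD63 low libraries, where 3 and 3 to 6 of them were at 0. Stellate markers summed to at most 7.19 CPM in any library. The part of any of these cells in the enzyme levels was not tested, and in bulk samples fewer cells of a type and less RNA per cell cannot be told apart.

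**Figure D3:**
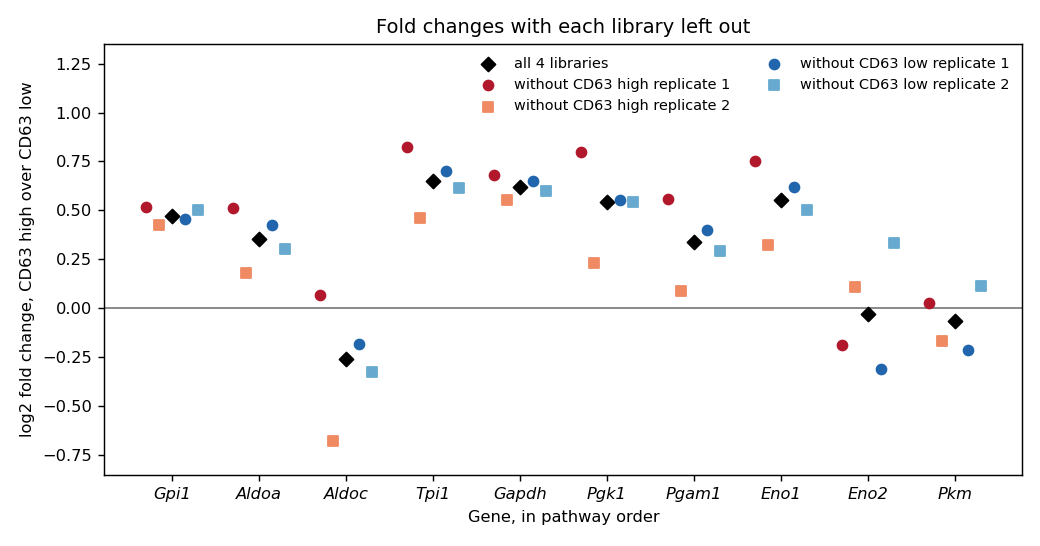
Log2 fold change of each enzyme, CD63 high over CD63 low, with all 4 libraries (black) and with each library left out in turn. Without CD63 high replicate 2, Pgk1 stands at 0.23 and Pgam1 at 0.09, whereas Gapdh stays between 0.55 and 0.68 and Gpi1 between 0.43 and 0.52. Aldoc, Eno2 and Pkm lie on either side of 0.

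**Figure D4:**
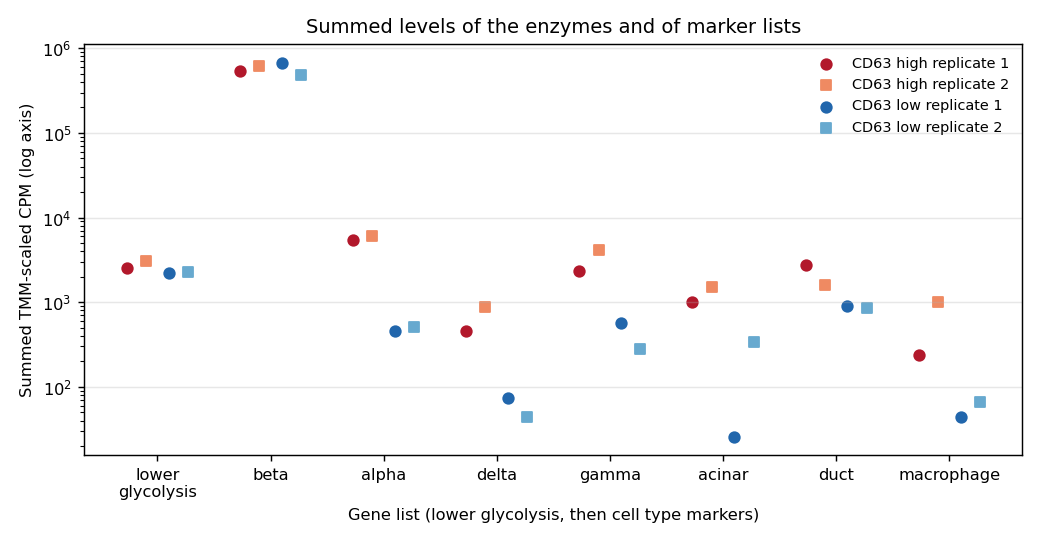
Summed TMM-scaled CPM (log axis) of the 10 enzymes and of marker lists of 7 cell types, 1 point per library. The enzyme sum spans 2223 to 3064 CPM. The macrophage markers range from 43.6 to 994 CPM and, like the alpha, delta, gamma and acinar markers, are highest in CD63 high replicate 2.

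Upstream of these enzymes, genes of glucose entry and upper glycolysis went in different directions. Of 19 tested members 3 rose and 1 fell, against 2.50% and 0.287% of all tested genes. The other 15 failed the test, and the median log2 fold change of the list was 0.51. Slc2a2, through which mouse beta cells take up most glucose, fell from 164 and 184 CPM in CD63 low to 50.0 and 72.0 CPM in CD63 high libraries (a log2 difference of -1.51, SE 0.23, edgeR adjusted p 0.00623). With library size as the only scaling its log2 fold change was -1.57 and the call ended (edgeR adjusted p 0.0541, the highest of 15 alternatives, with the lowest at 1.57e-09). Fbp1 and Fbp2, fructose bisphosphatases that run the phosphofructokinase step backwards, rose by 2.91 (SE 0.40) and 3.04 (SE 0.57) on the log2 scale. Fbp1 stood at 23.97 and 13.8 CPM against 1.68 and 3.29 CPM. With library size only, the log2 fold changes were 2.85 and 2.99 and both calls ended (edgeR adjusted p 0.0636 and 0.118). Fbp2 was at 2.09 and lost its call with CD63 high replicate 1 left out (an edgeR adjusted p of 0.0741). Hk1, a hexokinase usually kept low in beta cells, had 51 and 17 counts in CD63 high and none in the CD63 low libraries, at least 26.6-fold higher against 3 counts over both CD63 low libraries. Its call ended with CD63 high replicate 1 left out (an edgeR adjusted p of 0.168) without CD63 low replicate 2 (0.0574) and with library size only (0.104).

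The other genes of that list with the smallest p were Pfkp, Hk2, Hk3 and Pfkfb2, and none of them passed. Pfkp, the platelet-type phosphofructokinase, stood at 107.5 and 105.0 CPM in CD63 high and 49.2 and 67.35 CPM in the CD63 low pair (a log2 difference of 0.87, SE 0.21, edgeR adjusted p 0.0599). Pfkl and Pfkm, the liver and muscle types, had log2 fold changes of -0.16 and -0.42. Hk2 and Hk3 had 17 and 19 counts and 24 and 156 counts in CD63 high, against 1 and 0 counts and 2 and 23 counts in CD63 low libraries. Pfkfb2, which sets the level of the activator fructose 2,6-bisphosphate, was at -0.69 (SE 0.25).

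Downstream, 2 of 23 tested pyruvate and lactate genes rose and none fell, against 2.50% and 0.287% of all tested genes. The median log2 fold change of the list was -0.05. Ldha, lactate dehydrogenase A, stood at 8.97 and 40.7 CPM in CD63 high and 1.78 and 1.00 CPM in the CD63 low pair (a log2 difference of 4.17, SE 0.63, edgeR adjusted p 0.00698), and at 2.70 without CD63 high replicate 2. Its call ended with library size only (log2 fold change 4.12, edgeR adjusted p 0.0570) and with limma-voom (3.83, adjusted p 0.0528). It also ended in edgeR's robust fit (4.17, adjusted p 0.0904, the highest of 15 alternatives). Slc16a3, a lactate exporter known from macrophages and muscle, had 71 and 107 counts in CD63 high and none in CD63 low libraries, at least 69.7-fold higher. The CD63 high libraries that carried these transcripts also carried more of the macrophage, alpha, delta, gamma and acinar markers. The part of these cells was not tested. Pdk2, a kinase that inhibits pyruvate dehydrogenase, stood at 10.7 and 9.03 CPM against 18.5 and 18.3 CPM without passing (a log2 difference of -0.89, SE 0.25, edgeR adjusted p 0.0949). Pdk4, Pdk3 and Pcx, the pyruvate carboxylase of beta cells, did not pass either, with log2 fold changes of 2.34, 0.64 and -0.75.

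The NADH shuttles carry the reducing power made by Gapdh into mitochondria. None of their 10 genes passed edgeR's test, which called 2.79% of all tested genes. Of the 10, 1 had an unadjusted p under 0.05 (14.9% of all tested genes did, in either direction). The median log2 fold change of the 10 was 0.07. Mdh1, cytosolic malate dehydrogenase, stood at 436 and 484 CPM in CD63 high and 389 and 369 CPM in the CD63 low pair (a log2 difference of 0.28, SE 0.19). Gpd1l, a relative of glycerol 3-phosphate dehydrogenase, was at -1.06 (SE 0.41), and the aspartate-glutamate carriers Slc25a13 and Slc25a12 were at 0.81 and -0.28. The minor gene forms of the enzymes also gave no call in edgeR's test, against the same 2.79% of all tested genes. Of 7 tested minor forms 1 had an unadjusted p under 0.05. Eno1b, a close copy of Eno1, Eno3 and Eno4 were at 0.43, -0.26 and 0.92.

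Of 16 tested genes of the hypoxia response, which shares its regulator with many glycolysis genes, 1 rose and none fell. Among all tested genes those shares were 2.50% and 0.287%. The median log2 fold change of the 16 was 0.08. The gene that rose was Higd1a, which encodes a small mitochondrial protein, with 110 and 149 counts in CD63 high and 7 and 8 counts in the CD63 low pair (a log2 difference of 4.33, SE 0.60, edgeR adjusted p 0.00431). None of the others named here passed: Ndrg1 was at -0.52, Kdm3a at -0.61, Vegfa at -0.36 and Bnip3 at 0.45.

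**Figure D5:**
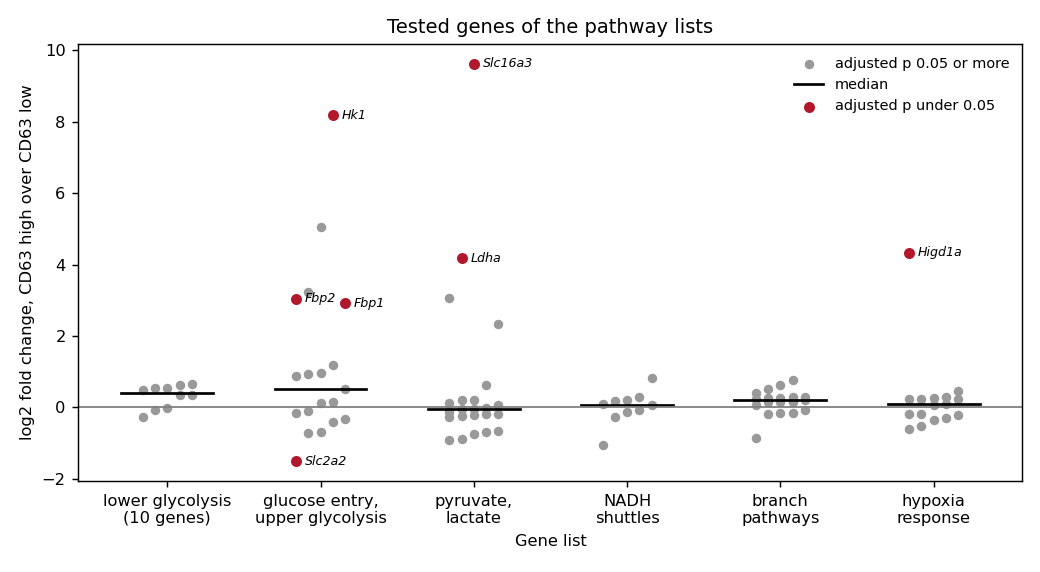
Log2 fold change, CD63 high over CD63 low, of the tested genes of each list (points), with called genes in red and named, and the list median as a bar. The 10 lower glycolysis genes lie between -0.26 and 0.65 with none called. The values of Hk1 and Slc16a3, without counts in CD63 low libraries, are fitted values that depend on edgeR's prior count.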

How the data were processed

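The deposited tables hold raw counts, 1 table per library. Per the file headers, they were made by featureCounts 1.6.2 on merged alignments of paired reads, counted by gene name, with no strand option, against the gene models shipped with Cell Ranger 3.0.0 for mm10. The submitters' processing notes also name STAR 2.6.0c and FastQC. The sources used here do not give any trimming of reads. Reads with several matches were not counted under these settings, which touches genes with pseudogenes. Reads of the opposite-strand neighbours Gm26762 (Gpi1), Fam57b (Aldoa), Spsb2 (Tpi1) and Iffo1 (Gapdh) cannot be told apart where exons overlap. RNA was amplified with a low-input kit and no molecular identifiers are named, so the Wilson intervals of the shares cover counting error only. The edgeR intervals of the log2 fold changes also include variation between libraries.

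Genes passed filterByExpr (minimum count 10, minimum total 15). CD63 high was tested against CD63 low with TMM scaling and the quasi-likelihood functions of edgeR 4.0.16 in R 4.3.3, with no covariate, and each SE was derived from the F statistic. DESeq2 1.42.0 and limma 3.58.1 served as alternatives, beside other scalings, filters, left-out libraries and a replicate block. The fit was tested on simulated data. TPM used the exon length of the tables. Pseudogenes were sought with BLAST in GENCODE M21. The members, lists and rules were chosen with earlier results of these data known. All 10 enzymes are named. From the other lists every called gene and up to 4 further genes with the smallest p are named, except for items not reported here, and Pklr, Pfkl, Pfkm and the reference Pkm were added after their values were seen.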

Additional observations from a re-analysis of the deposited data

How the results depend on the processing

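edgeR's test called 369 genes (331 higher and 38 lower in CD63 high) and 0 of the 10 enzymes. The counts were 67 (66 and 1) with library size as the only scaling, 940 (690 and 250) without the filter on low counts and 686 (534 and 152) with DESeq2, which called 2 enzymes, Tpi1 and Gapdh. With 1 library left out they ranged from 450 to 769 (378 to 512 higher, 56 to 257 lower), and no enzyme was called. The replicate numbers of the labels name no shared animal or sort, and libraries with the same number in their titles deviated with a correlation of -0.101 over 13241 genes. With the replicate block 616 genes were called (535 higher, 81 lower) and no enzyme. The names of the deposited tables number the CD63 low libraries differently from the titles, so which libraries share a number is uncertain. By those names CD63 high replicate 2 shares its number with CD63 low replicate 1, as in the crossed pairing. With 2 libraries a group, that pairing has the same correlation with the opposite sign by construction, so the correlation does not settle the pairing. The crossed pairing was run after seeing the data and called 942 genes (607 and 335) and 3 enzymes.

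Gpi1, Aldoa, Tpi1, Gapdh, Pgk1, Pgam1 and Eno1 kept a positive log2 fold change in all 15 alternatives. Eno2 turned to 0.0063 with upper quartile scaling, and with 1 library left out it ranged from -0.31 to 0.34, Aldoc from -0.68 to 0.0658 and Pkm from -0.21 to 0.11. The group difference in the Aldoc share, -0.774 percentage points per exon length, was -0.376 with the principal transcript length, an alternative chosen after seeing the data, since the ratio of the gene lengths sets that share. Beside the lost calls given with Slc2a2, Hk1, Fbp1, Fbp2 and Ldha, that of Fbp2 ended with limma-voom (log2 fold change 2.90, adjusted p 0.0629). With 2 libraries a group the standard errors of the enzymes were 0.19 to 0.30 on the log2 scale, which limits the differences that can be called. Beside what is said of the length ratio, the cause of these changes was not tested.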

Other observations

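Genes of pathways that branch off glycolysis gave no call among 19 tested in edgeR's test, which called 2.79% of all tested genes. Of the 19, 4 had an unadjusted p under 0.05 (14.9% of all tested genes did, in either direction). The median log2 fold change of the 19 was 0.20. Intermediates of the lower pathway feed serine synthesis, whose 3 enzymes were each higher in both CD63 high libraries than in either CD63 low library. Psat1, the aminotransferase, stood at 52.6 and 62.3 CPM in CD63 high and 34.6 and 32.6 CPM in CD63 low replicates 1 and 2 (log2 fold change 0.77, SE 0.20, edgeR adjusted p 0.0768). Psph, the phosphatase, stood at 56.1 and 64.1 CPM against 38.4 and 40.2 CPM (0.61, SE 0.20, edgeR adjusted p 0.151). Phgdh, the dehydrogenase that takes 3-phosphoglycerate out of glycolysis, stood at 42.7 and 39.1 CPM against 29.9 and 27.6 CPM (0.51, SE 0.21, edgeR adjusted p 0.274). None of the 3 passed, and CPM values above and not overlapping between the groups were found in 23.8% of all tested genes. Sord, sorbitol dehydrogenase of the polyol branch, stood at 3.64 and 5.56 CPM in CD63 high and 9.72 and 6.86 CPM in CD63 low libraries (-0.85, SE 0.36, edgeR adjusted p 0.297).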
